A study of Mus musculus with 12 samples.

Results

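Neutrophils are called into tissue by a small set of chemokines and are produced in the bone marrow under the control of the cytokine G-CSF. The transcripts of 9 genes of this system were followed in tumours labelled as mouse oral cancer. The genes are the chemokines Cxcl1, Cxcl2, Cxcl3, Cxcl5 and Ppbp, their receptors Cxcr1 and Cxcr2, G-CSF itself (Csf3) and the G-CSF receptor (Csf3r). Their rows were taken by symbol from a table of 55401 genes, and each symbol had 1 row in the table. The genes were chosen with earlier results of these data known. Of the 9 genes, 8 reached the minimum level for testing (at least 1 FPKM in at least 3 libraries), as did 15813 genes of the whole table. The receptor Cxcr1 did not reach it and is described by its values.

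RNA was sequenced from 12 tumour samples, 3 in each of 4 treatment groups. MTC-Q1, a mouse oral cancer cell line, had been injected into the mouth of C57BL/6 mice per the labels, and treatment began when tumours measured 100 mm3. The control group (Ctrl-IgG) received an isotype control that its label gives as IgG1-Fc. The aCSF1R group received an antibody against CSF1R, the receptor that macrophages need for survival. The other groups received interleukin-10 joined to the Fc portion of an antibody (IL-10-Fc) or BF10. In BF10, interleukin-10 is joined to the heavy chain of the CSF1R antibody. By the labels, every group carried the same tumour line and received an antibody or Fc protein. The labels give neither the age nor the sex of the mice. They state the number of doses as 6 in the protocol of treatment and as 4 in the design of the series. The 4 groups allow each component to be compared with the control, BF10 with each component, and BF10 with the sum of both components. The labels do not say whether the 3 libraries of a group came from separate animals, so the p-values measure the spread between these libraries. FPKM, the fragments of a gene divided by its length and by the fragments of its library, allows levels of different genes to be set side by side.

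Neutrophil chemokines of the ELR class, named for a short run of residues before their first cysteines, bind Cxcr2 on neutrophils and direct them along a gradient. Tumour cells, fibroblasts, endothelial cells and myeloid cells can make them, usually after interleukin-1, TNF or interleukin-17 activates NF-kB, and G-CSF is made under the same signals. G-CSF acts through Csf3r on marrow progenitors and on mature neutrophils, and tumours that secrete it are known for filling blood and tissue with neutrophils.

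The libraries fell into 2 sides that the labels do not explain, and this bears on every comparison between them. The libraries labelled Ctrl-IgG and aCSF1R stood apart from those labelled IL-10-Fc and BF10. Xist, the RNA of the inactive X chromosome, was at 0.01 to 0.04 FPKM in the first 6 libraries and at 17.1 to 30.7 FPKM in the other 6. H2-Ea, an MHC class II gene that C57BL/6 mice are known not to express, was at 0.04 to 0.27 FPKM against 553 to 1727 FPKM, and the simple-epithelium keratin Krt18 was at 0 to 0.09 against 293.6 to 614 FPKM. The Y-linked gene Eif2s3y was at 4.23 to 11.3 FPKM on the first side and at 0 to 3.29 FPKM on the other. Markers of squamous epithelium, the tissue in which oral tumours arise, summed to only 2.20 to 4.82 FPKM in 3 libraries. The labels give 1 tumour line and 1 strain for all 12 libraries. The methods of the study also describe RNA sequencing of a breast tumour model in a different mouse strain. No library here is labelled as that model, and whether the tissue of each library matched its label was not tested. Across the 2 sides, treatment and these differences cannot be told apart. The comparison of aCSF1R with Ctrl-IgG and that of BF10 with IL-10-Fc lie within a side. In addition, 4 libraries (replicates 1 and 2 of IL-10-Fc, replicate 1 of BF10 and replicate 2 of Ctrl-IgG) had FPKM sums of 819001 to 976950, against 637596 to 701275 in the other 8, and their mitochondrial transcripts took 6.57 to 9.04% of that sum against 2.99 to 3.61%. Calls of the 9 genes that changed without these 4 are given both ways. That setting keeps 2 Ctrl-IgG, 3 aCSF1R and 2 BF10 libraries but only 1 IL-10-Fc library (replicate 3), which is then assumed to vary like the other groups, and it tests 7 of the 9 genes, without Ppbp.

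The 5 chemokine genes lie together on chromosome 5 of the GRCm38 genome, in a stretch of 146.6 kb, all on the forward strand. In genome order they are Cxcl5 (ENSMUSG00000029371, chr5:90759360-90761624), Ppbp (ENSMUSG00000029372, chr5:90768518-90770063), Cxcl3 (ENSMUSG00000029379, chr5:90786103-90789600), Cxcl1 (ENSMUSG00000029380, chr5:90891241-90893115) and Cxcl2 (ENSMUSG00000058427, chr5:90903871-90905938). The starts of Cxcl1 and Cxcl2 are 12.6 kb apart. Cxcr2 (ENSMUSG00000026180, chr1:74153989-74161246, forward strand) and Cxcr1 (ENSMUSG00000048480, chr1:74191785-74194631, reverse strand) are neighbours on chromosome 1, with 30.5 kb between them. Csf3 (ENSMUSG00000038067) is at chr11:98701263-98703629 and Csf3r (ENSMUSG00000028859) at chr4:126024550-126044440, both on the forward strand.

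RefSeq promoters of build GRCm38.p6 were found for 7 of the 9 genes, and not for Cxcl5 and Csf3. The 3 shown here belong to Cxcl1, Cxcl2 and Cxcl3, the ligands whose levels are compared most closely below, and each covers the 100 bases that lie 130 to 31 bases before the RefSeq start, 5′ to 3′ on the forward strand. Capitals mark matches to GGNNTTTCC on either strand, letters of the kind that NF-kB binds.
Cxcl1, chr5:90891115-90891214: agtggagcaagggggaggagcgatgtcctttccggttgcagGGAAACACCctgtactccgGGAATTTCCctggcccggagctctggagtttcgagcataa
Cxcl2, chr5:90903769-90903868: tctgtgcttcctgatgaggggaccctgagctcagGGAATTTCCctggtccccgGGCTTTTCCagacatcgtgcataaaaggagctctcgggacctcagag
Cxcl3, chr5:90785971-90786070: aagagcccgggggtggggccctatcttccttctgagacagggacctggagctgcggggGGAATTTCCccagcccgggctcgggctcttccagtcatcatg

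All 3 stretches hold GGAATTTCC, which is also a match to GGNNTTTCC, at 70 to 62 bases before the start in Cxcl1, 96 to 88 in Cxcl2 and 72 to 64 in Cxcl3. Over 32851 RefSeq promoters, searched on both strands in the 250 bases before the start, GGAATTTCC was present in 94 (0.286%) and GGNNTTTCC in 1619 (4.93%). The wider motif also matched in Cxcl1 at 89 to 81 bases before the start, on the reverse strand, and in Cxcl2 at 77 to 69. The promoters of Ppbp, Cxcr1, Cxcr2 and Csf3r held neither motif in this window. The letters TATAAA, the core of a TATA box, were found in Cxcl3 and Ppbp and in 4063 (12.4%) of all promoters. The promoters were aligned on the shared motif, and 49 positions were compared, the motif with 20 bases on each side. The 9 motif bases, identical by choice, are counted in what follows. Cxcl1 and Cxcl2 had the same base at 28 of the 49 positions (57.1%), Cxcl1 and Cxcl3 at 25 (51.0%) and Cxcl2 and Cxcl3 at 21 (42.9%). The motifs were picked after the promoters had been read, and a match is a description of letters, not of a bound site.

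Csf3, which encodes G-CSF, separated the 2 sides more widely than any other gene of the 9. It was at 0.16, 0.26 and 1.41 FPKM in the Ctrl-IgG libraries and at 0.66, 0.83 and 0.75 FPKM in the aCSF1R libraries. In the libraries labelled IL-10-Fc it was at 68.5, 173 and 72.3 FPKM, and in those labelled BF10 at 110.3, 18.8 and 31.1 FPKM. The lowest of the latter 6 libraries, BF10 replicate 2, was still above the highest of the first 6. Group means were 0.61 ± 0.69 FPKM (SD, n = 3) for Ctrl-IgG, 0.747 ± 0.085 for aCSF1R, 104.6 ± 59.3 for IL-10-Fc and 53.4 ± 49.7 for BF10. In this order of levels Ctrl-IgG and aCSF1R overlapped, and so did BF10 and IL-10-Fc.

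On the log2(FPKM + 1) scale, Csf3 was higher in libraries labelled IL-10-Fc than in Ctrl-IgG by 5.98 (SE 0.58, limma adjusted p = 5.185e-05), and in libraries labelled BF10 by 4.76 (SE 0.58, adjusted p = 0.00027). Against aCSF1R the differences were 5.78 (adjusted p = 6.446e-05) for IL-10-Fc and 4.57 (adjusted p = 0.000349) for BF10. Csf3 was called, with an adjusted p under 0.05 and at least a 1.5-fold change, in all 20 alternative settings of each of these 4 comparisons. BF10 replicate 1 had the most Csf3 of its group, and without it the difference from Ctrl-IgG was 4.05, while without BF10 replicate 2 it was 5.30. Without the 4 libraries of high FPKM sum BF10 stood 3.91 above Ctrl-IgG, and the 1 IL-10-Fc library left stood 5.45 above it. No scaling changed these calls, and all 4 comparisons cross the sides that also differ in Xist, H2-Ea and Krt18. Within a side no difference in Csf3 was called. aCSF1R lay 0.20 above Ctrl-IgG on the log2 scale, with a 95% interval of -1.09 to 1.48, and BF10 lay 1.22 below IL-10-Fc (95% interval of the change -2.50 to 0.07, adjusted p = 0.478).

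**Figure D1:**
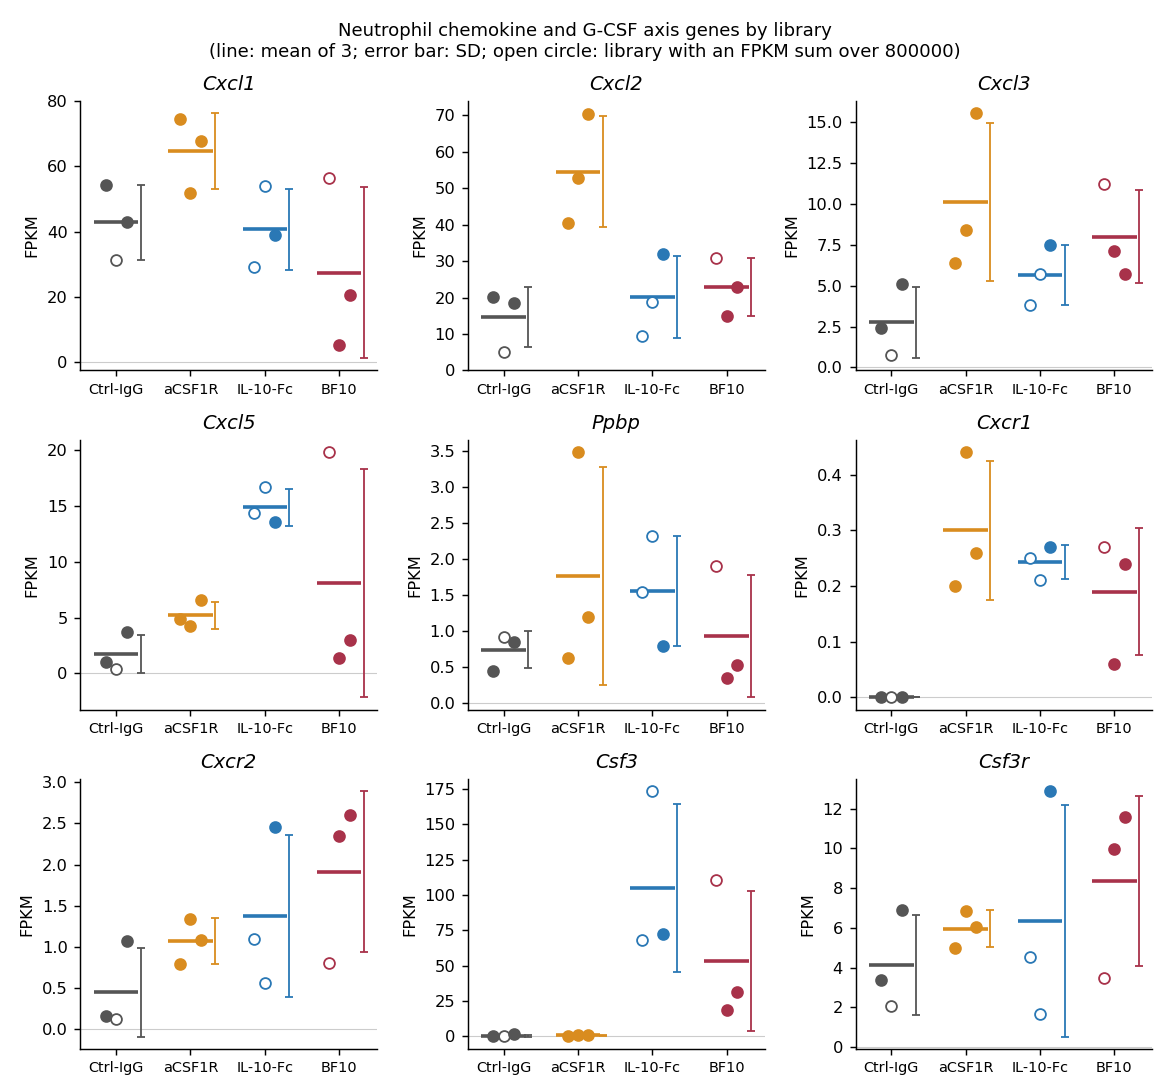
FPKM of each of the 9 genes (vertical axes, linear) in the 3 libraries of each treatment group (horizontal axis). Points are libraries, open circles mark the 4 libraries with FPKM sums above 800000, and lines and bars give the mean and SD. Csf3 stays between 0.16 and 1.41 FPKM under Ctrl-IgG and aCSF1R and lies between 18.8 and 173 FPKM in the other 6, while Csf3r and the chemokines show no such gap.

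Its receptor did not separate the groups. Csf3r, which is carried by neutrophils and their precursors and also by some monocytes, was at 3.36, 2.06 and 6.92 FPKM in Ctrl-IgG and at 4.98, 6.83 and 6.06 FPKM in aCSF1R. In IL-10-Fc it was at 4.54, 1.66 and 12.9 FPKM and in BF10 at 3.49, 9.99 and 11.6 FPKM. The lowest and the highest of the 12 libraries were thus both labelled IL-10-Fc, and all 4 groups overlapped. The difference from Ctrl-IgG on the log2(FPKM + 1) scale was 0.85 (SE 0.59, adjusted p = 0.342) for BF10, 0.32 (SE 0.59, adjusted p = 0.697) for IL-10-Fc and 0.55 (SE 0.59, adjusted p = 0.959) for aCSF1R. These values depended on the 4 libraries of high FPKM sum, in which Csf3r was at 1.66 to 4.54 FPKM. Without them Csf3r was called higher than in Ctrl-IgG both for BF10 (1.00, SE 0.29, adjusted p = 0.026) and for the 1 IL-10-Fc library left (1.24, SE 0.35, adjusted p = 0.0284), which had the most Csf3r of all 12. Against aCSF1R it was then called higher in BF10 (0.77, adjusted p = 0.0451) and in that IL-10-Fc library (1.00, adjusted p = 0.045), from 0.30 and -0.23 in the fit of all libraries.

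Markers of neutrophils were also higher on the side with more Csf3. The summed FPKM of 10 neutrophil genes (S100a8, S100a9, Ly6g, Retnlg, Mmp8, Camp, Ltf, Ngp, Mpo and Elane) was 28.3, 41.8 and 301.9 in Ctrl-IgG and 175.3, 331.8 and 176.7 in aCSF1R. The IL-10-Fc libraries had sums of 4598, 2865 and 1042, and the BF10 libraries 1674, 548.2 and 787.8. S100a8 and S100a9 made up most of the sum in every library, so it mainly follows these genes. In IL-10-Fc replicate 1 they were at 1891.7 and 2491.8 FPKM, whereas Ly6g ranged from 0.08 to 6.55 FPKM over all libraries. Of the 9 markers tested, BF10 exceeded Ctrl-IgG by the call in 8 (median log2 difference 2.97, against -0.12 over all genes tested). IL-10-Fc did so in 7 (median 3.28, against -0.39). Of all genes tested, 24.9% and 33.7% were called in these comparisons in either direction. Against aCSF1R, 6 of the 9 were called higher in BF10 and 8 in IL-10-Fc, where 25.0% and 42.2% of all genes were called. The granule genes Elane, Mpo, Camp, Ltf and Ngp, made by immature neutrophils, reached no more than 1.93 FPKM on the Ctrl-IgG and aCSF1R side. Other summed markers differed between the sides too. Those of fibroblasts were at 732 to 1637 FPKM on the side with more Csf3 and at 142 to 484 FPKM on the other. Macrophage sums were at 407 to 566 and at 124 to 347 FPKM. Endothelial and mast cell sums overlapped, and those of skeletal muscle and squamous keratinocytes had the lower median on the side with more Csf3. In bulk tissue, fewer cells of a type and less RNA per cell cannot be told apart. The part that the number of neutrophils had in the values of Csf3 and its receptor was not tested.

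**Figure D2:**
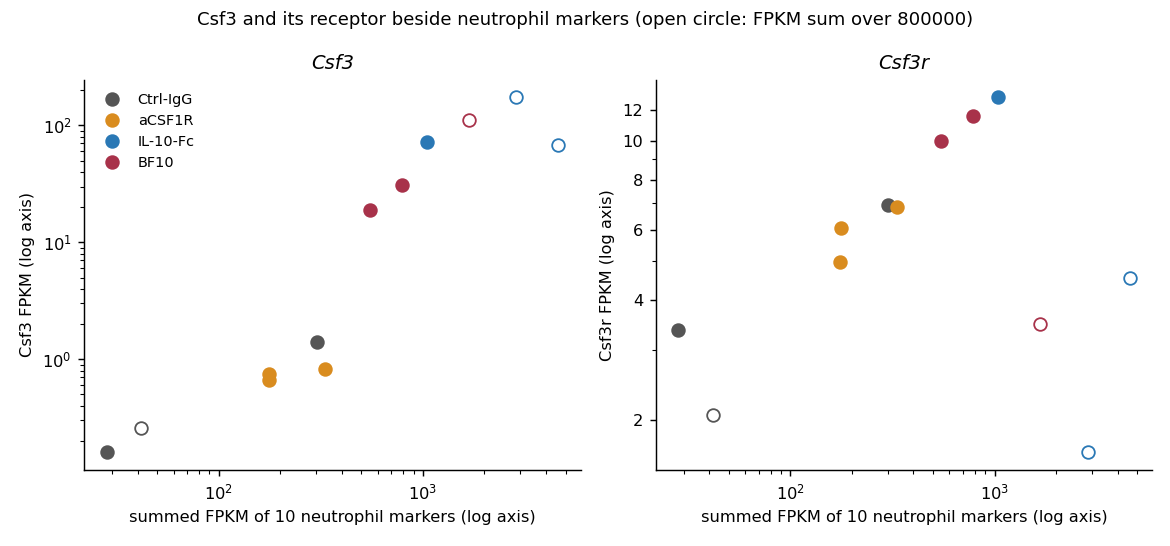
Level of Csf3 and of Csf3r (vertical axes, FPKM, log scale) against the summed FPKM of 10 neutrophil markers (horizontal axes, log scale), with 1 point per library coloured by group. S100a8 and S100a9 make up most of that sum in every library. The 6 libraries labelled IL-10-Fc and BF10 lie at the upper right for Csf3, at marker sums of 548.2 to 4598, whereas Csf3r spans 1.66 to 12.9 FPKM there and 2.06 to 6.92 FPKM in the other 6.

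Cxcl1, the mouse counterpart of the GRO chemokines and a ligand of Cxcr2, was the most abundant of the 9 genes in the Ctrl-IgG libraries. It was at 54.3, 31.4 and 42.9 FPKM there and at 74.5, 51.7 and 67.6 FPKM in aCSF1R. It was at 29.1, 53.9 and 39.0 FPKM in IL-10-Fc, and the BF10 libraries spread most widely, at 56.4, 5.37 and 20.6 FPKM. The means were 64.6 ± 11.7 FPKM (SD, n = 3) in aCSF1R, 42.9 ± 11.5 in Ctrl-IgG, 40.7 ± 12.5 in IL-10-Fc and 27.5 ± 26.2 in BF10, and each neighbouring pair in this order overlapped. No comparison called Cxcl1 in the fit of all 12 libraries. The largest difference, BF10 against aCSF1R, was -1.70 on the log2(FPKM + 1) scale (SE 0.62, adjusted p = 0.0674). Its size depended on single BF10 libraries, of which only replicate 1 lay within the range of aCSF1R and replicate 2 was the lowest of all 12. Without BF10 replicate 1 the difference was -2.47 (adjusted p = 0.0053), and without BF10 replicate 2 it was -0.88. The difference from Ctrl-IgG of -1.11 (adjusted p = 0.232) was -1.87 (adjusted p = 0.0184) without BF10 replicate 1 and -0.28 without BF10 replicate 2. Without the 4 libraries of high FPKM sum Cxcl1 was called lower in BF10 than in aCSF1R (-2.47, adjusted p = 0.0055) and than in Ctrl-IgG (-2.07, adjusted p = 0.0167).

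Cxcl2, also known as MIP-2 and made in quantity by activated myeloid cells, was at 20.1, 5.11 and 18.5 FPKM in Ctrl-IgG and at 40.4, 52.8 and 70.5 FPKM in aCSF1R. It was at 9.53, 18.9 and 31.9 FPKM in IL-10-Fc and at 30.7, 15.0 and 22.9 FPKM in BF10. The 3 aCSF1R libraries were the 3 highest of all 12, and the other groups overlapped each other. Means were 54.6 ± 15.1 FPKM (SD, n = 3) in aCSF1R, 22.9 ± 7.85 in BF10, 20.1 ± 11.2 in IL-10-Fc and 14.6 ± 8.22 in Ctrl-IgG. Cxcl2 was called lower in IL-10-Fc than in aCSF1R, by -1.51 on the log2(FPKM + 1) scale (SE 0.53, adjusted p = 0.0402), a comparison across the sides. That call was lost in 10 of 20 alternative settings. Among these were leaving out any aCSF1R library, IL-10-Fc replicate 1 or 2, or BF10 replicate 3 (adjusted p = 0.0535 to 0.157), and leaving out the 4 libraries of high FPKM sum, with 1 IL-10-Fc library left (-0.72, adjusted p = 0.114). BF10 against aCSF1R gave -1.24 (SE 0.53, adjusted p = 0.114), which was called without the 4 libraries (-1.47, adjusted p = 0.0037).

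Cxcl3, the third of these closely related ligands, was lower throughout, at 2.42, 0.75 and 5.08 FPKM in Ctrl-IgG and at 6.38, 8.43 and 15.6 FPKM in aCSF1R. It was at 3.79, 5.73 and 7.47 FPKM in IL-10-Fc and at 11.2, 7.09 and 5.73 FPKM in BF10. All 3 aCSF1R libraries and all 3 BF10 libraries were above the highest Ctrl-IgG library, whereas IL-10-Fc overlapped every group. Means were 10.1 ± 4.82 FPKM (SD, n = 3) in aCSF1R, 8.0 ± 2.84 in BF10, 5.66 ± 1.84 in IL-10-Fc and 2.75 ± 2.18 in Ctrl-IgG. Cxcl3 rose in BF10 over Ctrl-IgG, by 1.40 on the log2(FPKM + 1) scale (SE 0.47, adjusted p = 0.0492). The call stood just inside the threshold and was lost in 14 of 20 alternative settings. It held only without replicate 3 of Ctrl-IgG, aCSF1R or IL-10-Fc among the settings that left out 1 library, and without any of the other 9 libraries the adjusted p was 0.0579 to 0.159. Without the 4 libraries of high FPKM sum the difference was 0.69 (adjusted p = 0.213). In IL-10-Fc, Cxcl3 lay 0.97 above Ctrl-IgG (SE 0.47, adjusted p = 0.13), and it was called only without Ctrl-IgG replicate 3 among the settings that left out 1 library (1.41, adjusted p = 0.0436).

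Of the 5 chemokines, only Cxcl5 was called in IL-10-Fc against Ctrl-IgG in the fit of all 12 libraries. This ligand, known as LIX in the mouse and made mostly by epithelial and stromal cells, was at 1.07, 0.44 and 3.68 FPKM in Ctrl-IgG and at 4.83, 4.25 and 6.53 FPKM in aCSF1R. In IL-10-Fc it was at 14.4, 16.7 and 13.5 FPKM, close together and above every Ctrl-IgG and aCSF1R library. The BF10 libraries held both the highest value of the 12 and some of the low ones, at 19.8, 1.39 and 2.99 FPKM. Cxcl5 was called higher in IL-10-Fc than in Ctrl-IgG, by 2.72 on the log2(FPKM + 1) scale (SE 0.68, adjusted p = 0.0108), and this held in all 20 alternative settings, with a difference of 2.22 to 3.48. The comparison crosses the sides. BF10 against Ctrl-IgG gave 1.28 (SE 0.68, adjusted p = 0.207), with 0.36 when BF10 replicate 1 was left out and -0.011 without the 4 libraries of high FPKM sum. Against aCSF1R, IL-10-Fc was higher in Cxcl5 by 1.37 (SE 0.68, adjusted p = 0.12), which was called only without BF10 replicate 1 among the settings that left out 1 library (adjusted p = 0.0203).

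Ppbp, whose product is stored in platelets and becomes a Cxcr2 ligand after trimming, was low in every library. It ranged from 0.45 to 0.92 FPKM in Ctrl-IgG, from 0.63 to 3.48 FPKM in aCSF1R, from 0.79 to 2.32 FPKM in IL-10-Fc and from 0.35 to 1.90 FPKM in BF10. All groups overlapped, and the 7 comparisons gave adjusted p-values from 0.338 upwards. Of 5 platelet markers, Gp5, Gp9 and Gp1bb stayed at or under 1.38 FPKM in all 12 libraries and Itga2b was at 1.17 to 8.06 FPKM. Pf4, a neighbour of Ppbp that macrophages can also express, was at 19.0 to 194.9 FPKM. The summed markers were at 57.3 to 113.8 FPKM in Ctrl-IgG, 28.1 to 63.1 in aCSF1R, 74.4 to 196 in IL-10-Fc and 81.6 to 193 in BF10, and their part in the values of Ppbp was not tested.

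The receptors of these ligands were low in every library. Cxcr2, the main ELR chemokine receptor of mouse neutrophils, was at 0.16, 0.12 and 1.07 FPKM in Ctrl-IgG, at 0.79, 1.34 and 1.09 in aCSF1R, at 1.10, 0.56 and 2.46 in IL-10-Fc and at 0.80, 2.34 and 2.60 in BF10. The 2 lowest libraries were both Ctrl-IgG and the 3 highest were labelled IL-10-Fc or BF10, with overlap among all groups. BF10 against Ctrl-IgG gave 1.00 on the log2(FPKM + 1) scale (SE 0.37, adjusted p = 0.0689). That difference was called in 7 of 20 alternative settings, among them leaving out Ctrl-IgG replicate 3 (1.29, adjusted p = 0.032), IL-10-Fc replicate 3 (1.00, adjusted p = 0.0385) or BF10 replicate 1 (1.32, adjusted p = 0.0251). Cxcr2 was also called without the 4 libraries of high FPKM sum, in BF10 (1.16, adjusted p = 0.0164) and in the 1 IL-10-Fc library left (1.16, adjusted p = 0.0383), where IL-10-Fc had stood 0.69 above Ctrl-IgG (adjusted p = 0.165). Cxcr1, the other receptor of the pair, was listed at 0 in all 3 Ctrl-IgG libraries and at 0.20, 0.44 and 0.26 FPKM in aCSF1R. It was at 0.25, 0.21 and 0.27 FPKM in IL-10-Fc and at 0.27, 0.06 and 0.24 FPKM in BF10. No fold change is given for Cxcr1, since its depth in reads is unknown.

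The CSF1R antibody alone was the comparison within the first side. Of the 8 genes tested, 0 were called between aCSF1R and Ctrl-IgG, as were 0 of all 15813 genes (0%). At an unadjusted p under 0.05, limma gave 2 of the 8 genes and 437 of all genes. Those 2 were Cxcl2, higher in aCSF1R by 2.00 on the log2(FPKM + 1) scale (SE 0.53, 95% interval 0.83 to 3.16, unadjusted p = 0.00313, adjusted p = 0.959), and Cxcl3, higher by 1.66 (SE 0.47, 95% interval 0.63 to 2.69, unadjusted p = 0.00452, adjusted p = 0.959). Every aCSF1R library was above every Ctrl-IgG library in both. Cxcl5 was higher by 1.35 (SE 0.68) and Cxcl1 by 0.60 (SE 0.62), both at an adjusted p of 0.959. The median difference over the 8 genes was 0.58, against 0.11 over all genes tested. Leaving out Ctrl-IgG replicate 2, which held the least Cxcl2 and Cxcl3 and is among the libraries of high FPKM sum, lowered the difference in Cxcl2 to 1.42 and that in Cxcl3 to 1.2. Squamous keratinocyte genes were uneven in these libraries, with summed levels of 2.26, 4.82 and 1197 FPKM in Ctrl-IgG and 534.6, 849.5 and 2.20 in aCSF1R, and their part in these differences was not tested. The summed macrophage markers were 197 to 347 FPKM in Ctrl-IgG and 124 to 136 in aCSF1R.

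Adding the CSF1R antibody to interleukin-10, the comparison of BF10 with IL-10-Fc, lies within the other side. None of the 8 genes was called (0 by limma, and 0 at an unadjusted p under 0.05), against 2 of all genes called (0.0126%) and 828 at an unadjusted p under 0.05. Cxcl5 lay lower in BF10 by -1.44 on the log2(FPKM + 1) scale (95% interval -2.93 to 0.06), Csf3 by -1.22 and Cxcl1 by -1.02 (95% interval -2.38 to 0.34), each with an adjusted p of 0.478. The 2 BF10 libraries with the least Csf3, replicates 2 and 3, also had the least Cxcl5 and Cxcl1, and BF10 replicate 1 had more of each of the 3 genes than at least 2 of the 3 IL-10-Fc libraries. Without BF10 replicate 1 the differences were -2.36 for Cxcl5, -1.93 for Csf3 and -1.79 for Cxcl1, and without BF10 replicate 2 they were -0.80, -0.69 and -0.20, none of them called. Cxcl2 (0.27, or -0.15 with median-of-ratios size factors), Cxcl3 (0.43), Cxcr2 (0.31) and Csf3r (0.53) differed by less, with adjusted p-values of 0.557 to 0.741. The libraries of high FPKM sum include replicates 1 and 2 of IL-10-Fc but only replicate 1 of BF10, and the part of this in the differences was not tested. Without the 4 libraries of high FPKM sum, 2 BF10 libraries stood against 1 IL-10-Fc library. That gave -2.23 for Cxcl5, -1.54 for Csf3 and -1.77 for Cxcl1. For Cxcl2, Cxcl3, Cxcr2 and Csf3r it gave -0.75, -0.20, 0.003 and -0.24. The median over the 8 genes was -0.09, against 0.34 over all genes tested.

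Across the sides, 2 of the 8 genes were called in BF10 against Ctrl-IgG, Cxcl3 and Csf3, both higher, where 24.9% of all genes tested were called in either direction. In IL-10-Fc against Ctrl-IgG it was again 2, Cxcl5 and Csf3, both higher, where 33.7% of all genes were called. BF10 against aCSF1R called 1 gene, Csf3, where 25.0% of all genes were called, and IL-10-Fc against aCSF1R called 2, Csf3 higher and Cxcl2 lower, where 42.2% were called. As a share of the 8, these counts lie near or below the share of all genes called. The comparisons share control libraries and are not independent of each other. With median-of-ratios size factors the median log2 difference of all genes moved from -0.39 to 0.01 in IL-10-Fc against Ctrl-IgG and from -0.51 to 0.02 in IL-10-Fc against aCSF1R, and the share of calls that were higher went from 30.0 to 49.4% and from 26.0 to 48.5%. Under that scaling Cxcl3 (1.40, adjusted p = 0.0369) and Cxcr2 (0.91, adjusted p = 0.0304) were also called in IL-10-Fc against Ctrl-IgG, and Cxcl2 was no longer called in IL-10-Fc against aCSF1R (-0.89, adjusted p = 0.152). Without the 4 libraries of high FPKM sum, BF10 against Ctrl-IgG gave -2.07 for Cxcl1, -0.05 for Cxcl2, 0.69 for Cxcl3 and -0.01 for Cxcl5. It gave 1.16 for Cxcr2, 3.91 for Csf3 and 1.00 for Csf3r. The 1 IL-10-Fc library left gave -0.30 for Cxcl1, 0.70 for Cxcl2, 0.89 for Cxcl3 and 2.22 for Cxcl5 against Ctrl-IgG. For Cxcr2, Csf3 and Csf3r it gave 1.16, 5.45 and 1.24.

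BF10 was also set against the sum of its parts, as the difference between its effect and the added effects of aCSF1R and IL-10-Fc over Ctrl-IgG. None of the 8 genes departed from that sum by the limma test (0 called, and 2 at an unadjusted p under 0.05), against 0.00632% of all genes called (1 gene) and 412 at an unadjusted p under 0.05. The 2 genes were Cxcl5, which lay below the sum by -2.79 on the log2(FPKM + 1) scale (SE 0.96, unadjusted p = 0.0145, adjusted p = 0.9996), and Cxcl2, below it by -1.72 (SE 0.75, unadjusted p = 0.0418, adjusted p = 0.9996). The values of Cxcl1 (-1.62), Csf3 (-1.41) and Cxcl3 (-1.23) had the same sign, and that of Csf3r was -0.01. This measure is the difference of BF10 from IL-10-Fc less that of aCSF1R from Ctrl-IgG. Each of its parts lies within a side, but the measure sets 1 side against the other. A departure from the sum therefore cannot be told apart from a response to the antibody that differs between the sides.

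**Figure D3:**
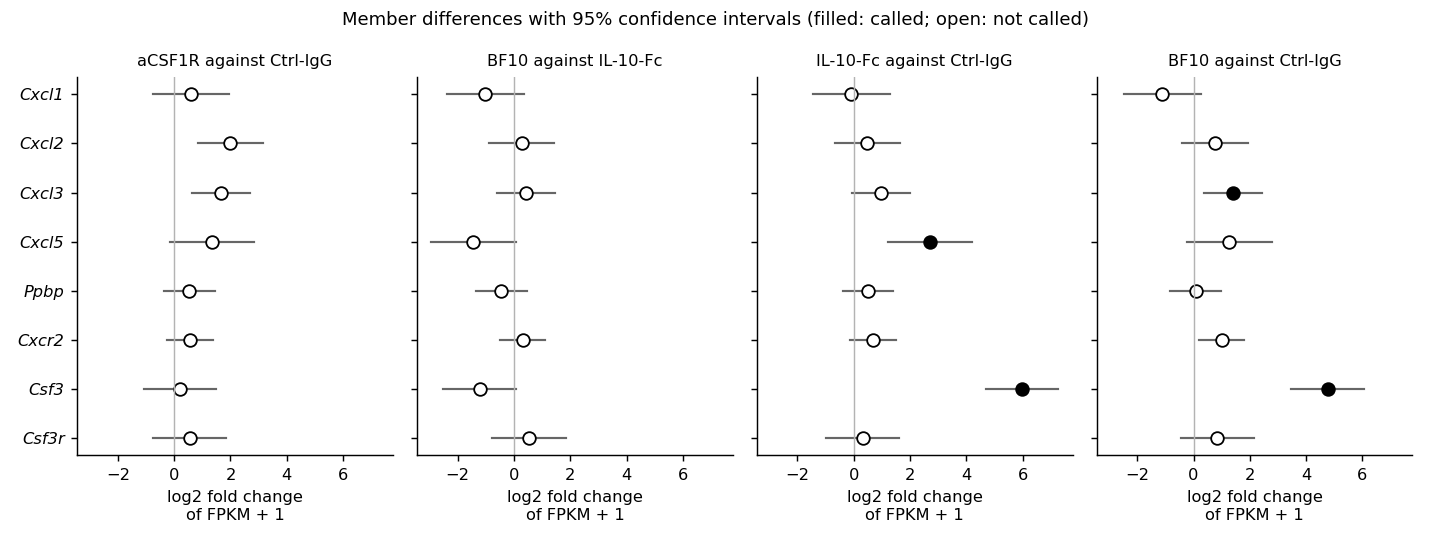
Difference in log2(FPKM + 1) (horizontal axis) for the 8 genes tested (vertical axis) in 4 comparisons, with points for the limma estimate and bars for its 95% interval. Filled points were called at an adjusted p under 0.05 and at least 1.5-fold. Csf3 stands 4.76 and 5.98 above Ctrl-IgG in BF10 and IL-10-Fc, and no point is filled in aCSF1R against Ctrl-IgG or in BF10 against IL-10-Fc.

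The balance among the 5 ligands differed between libraries as well as their total. Their summed level was 78.4, 38.6 and 71.0 FPKM in Ctrl-IgG and 126.7, 120.7 and 161 in aCSF1R. In the IL-10-Fc libraries the sum came to 58.3, 97.6 and 92.7 FPKM, and in the BF10 libraries to 119.99, 29.2 and 52.7 FPKM. The 3 aCSF1R libraries had the 3 highest sums. Cxcl1 made up 60.4 to 81.3% of the sum in Ctrl-IgG, 41.9 to 58.8% in aCSF1R, 42.0 to 55.2% in IL-10-Fc and 18.4 to 47.0% in BF10. Cxcl2 took 13.2 to 26.1%, 31.9 to 43.8%, 16.3 to 34.5% and 25.6 to 51.4% in the same order. Cxcl1 was the most abundant ligand in 8 libraries, and Cxcl2 in the other 4, which were aCSF1R replicates 2 and 3 and BF10 replicates 2 and 3. Cxcl5 supplied 14.6 to 24.6% in IL-10-Fc, 4.76 to 16.5% in BF10 and at most 5.19% in Ctrl-IgG and aCSF1R.

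**Figure D4:**
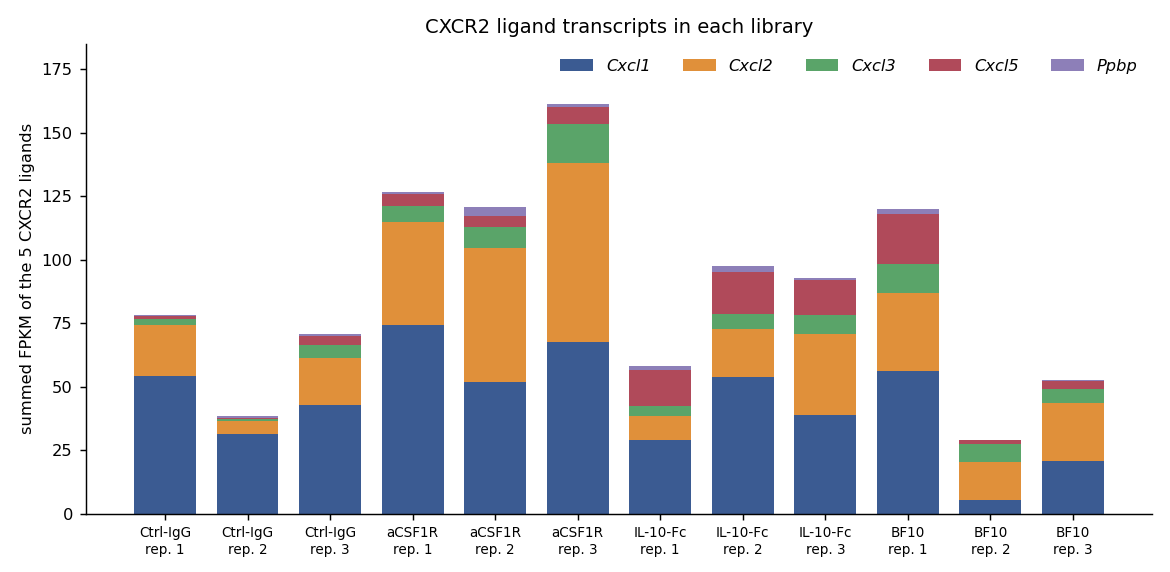
Stacked FPKM of the 5 ligands Cxcl1, Cxcl2, Cxcl3, Cxcl5 and Ppbp (vertical axis, from 0) in each of the 12 libraries (horizontal axis, by group). The aCSF1R libraries reach 120.7 to 161 FPKM, Cxcl1 forms the greater part of each Ctrl-IgG column, and Cxcl5 is at 13.5 to 16.7 FPKM in the IL-10-Fc columns and at 19.8 FPKM in BF10 replicate 1.

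The cytokines that induce these genes were tested as a list of 11, of which 6 reached the minimum level. Against Ctrl-IgG, 2 of the 6 were called higher in BF10 (median log2 difference 0.67) and 3 in IL-10-Fc (median 1.18), where 24.9% and 33.7% of all genes were called in either direction. Il1a, an alarm cytokine that drives both Cxcl1 and Csf3 in many cells, was at 0.34 to 1.88 FPKM in Ctrl-IgG and aCSF1R and at 4.30 to 21.8 FPKM in the other 6 libraries. It rose by 3.23 in IL-10-Fc (SE 0.43, adjusted p = 0.000295) and by 2.33 in BF10 (SE 0.43, adjusted p = 0.00272). Il1b, its inflammasome-processed relative, rose by 2.22 in IL-10-Fc (SE 0.57, adjusted p = 0.012), with 28.4 to 230.2 FPKM on that side against 18.1 to 38.2 FPKM. Il23a, which acts upstream of interleukin-17, rose by 2.55 in IL-10-Fc (adjusted p = 0.000208) and by 2.01 in BF10 (adjusted p = 0.00116). Il17a was at 0 in 11 of the 12 libraries. Il17f was at 0.11 to 0.57 FPKM in Ctrl-IgG and aCSF1R and at 0 to 0.07 FPKM in the other 6. Tnf had a median of 3.06 FPKM in Ctrl-IgG and aCSF1R and of 1.275 FPKM in the other 6. Against aCSF1R, 2 of the 6 tested were called in BF10, both higher, where 25.0% of all genes were called. In IL-10-Fc 4 were called against aCSF1R, 3 higher and Tnf lower, where 42.2% of all genes were called. Among 8 receptors and adaptors for these cytokines, Il1r1 was called higher than in Ctrl-IgG in both (1.41 in IL-10-Fc and 1.59 in BF10). The adaptor Myd88 was called lower in IL-10-Fc (-1.70, adjusted p = 0.0141). Against aCSF1R, 4 of the 8 were called in IL-10-Fc, Il1r1 higher and Myd88, Il17rc and Tnfrsf1a lower, and only Il1r1, higher, in BF10. None of these genes was called within a side.

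Of 13 regulators of chemokine transcription and mRNA decay, 1 rose over Ctrl-IgG in BF10 and 3 did so in IL-10-Fc, shares below the 24.9% and 33.7% of all genes called. Tnfaip3, an NF-kB target that restrains the same pathway, was called in both, at 1.62 in BF10 (SE 0.40, adjusted p = 0.0122) and 1.19 in IL-10-Fc (SE 0.40, adjusted p = 0.0403). Nfkbiz, a cofactor needed for a subset of NF-kB targets, rose by 1.12 in IL-10-Fc, and Cebpd, a factor of the acute phase, by 1.38. Genes that act below the G-CSF receptor numbered 9 tested of 11. Jak2, the kinase bound to Csf3r, was the single gene called in either comparison, a share below the 24.9% and 33.7% of all genes. Its level was 15.1 to 23.5 FPKM under Ctrl-IgG and aCSF1R and 76.0 to 161 FPKM in the other 6, with differences of 2.40 in BF10 (SE 0.32, adjusted p = 0.000436) and 2.72 in IL-10-Fc (SE 0.32, adjusted p = 0.000151). Socs3, a feedback inhibitor that G-CSF induces, overlapped, at 7.54 to 62.2 FPKM against 19.6 to 68.8 FPKM.

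Proteases and atypical chemokine receptors were tested as a list, of which only some members trim or remove ELR chemokines. Of 5 tested, 3 were called in BF10 and 4 in IL-10-Fc, all higher than in Ctrl-IgG. In these comparisons 24.9% and 33.7% of all genes were called. Mmp9, a neutrophil and macrophage gelatinase, was at 2.10 to 8.21 FPKM on the Ctrl-IgG and aCSF1R side and at 48.4 to 296.8 FPKM on the other. It rose by 5.28 in BF10 (SE 0.64, adjusted p = 0.000253) and by 4.74 in IL-10-Fc (SE 0.64, adjusted p = 0.000327). Mmp12, which inactivates ELR chemokines, rose by 2.41 in BF10 and 3.67 in IL-10-Fc. The atypical receptor Ackr3, which is not counted here as a receptor of ELR chemokines, rose by 2.20 and 2.44. Of 13 other neutrophil attractants and receptors tested, 3 were called in each comparison, in both directions and as a share below that of all genes. Cxcl12 (2.34) and its receptor Cxcr4 (1.24), which hold neutrophils in the marrow, were higher in BF10, and Ccl4 was lower in both (-1.24 in BF10). In the GM-CSF and interleukin-3 axis of 7 genes, 3 were called in BF10 and 2 in IL-10-Fc against Ctrl-IgG, beside 24.9% and 33.7% of all genes. Csf2, which encodes GM-CSF, rose in IL-10-Fc by 1.52 (SE 0.52, adjusted p = 0.0439). Il34, the other ligand of CSF1R, rose in both (1.22 in IL-10-Fc and 1.38 in BF10), and Csf2rb and Il3ra rose in BF10. Csf2rb has a near-identical neighbour, Csf2rb2, so its share of the reads is uncertain. In all of these lists, 0 genes were called in aCSF1R against Ctrl-IgG and 0 in BF10 against IL-10-Fc by limma, with 3 in each at an unadjusted p under 0.05. Among these were Lyn (-0.85, unadjusted p = 0.00304) and Ccl3 (1.42, unadjusted p = 0.00363), both in aCSF1R against Ctrl-IgG, and Il1b (-1.49, unadjusted p = 0.0233) in BF10 against IL-10-Fc.

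The genes whose pattern was most like each of the 8 tested genes were taken by Pearson's correlation of log2(FPKM + 1) over the 12 libraries, among 9521 genes whose mean reached 5 FPKM. These values describe 12 points that share the 2 sides and the scale of their libraries, so the correlation within each side is given too. Csf3 was most like Tpd52l1 (0.99), Gtpbp10 (0.99) and Il23a (0.99), and for Il23a the correlation was 0.22 within the Ctrl-IgG and aCSF1R libraries and 0.94 within the other 6. Cxcl5 was most like G0s2 (0.95), Rnf11 (0.93) and Lcn2 (0.89), the last a neutrophil granule and epithelial gene, and for G0s2 (0.95 and 0.97) and Lcn2 (0.90 and 0.96) the correlation was as high within each side. Cxcl2 was most like Cd63, a membrane protein of lysosomes and granules (0.94 over 12 libraries, 0.98 and 0.91 within the sides). Cxcl1 was most like the noncoding Epb41l4aos (0.89), with 0.08 and 0.98 within the sides. Cxcl3 was most like Stom (0.89) and Fth1 (0.88), Csf3r like Litaf (0.97) and Zyx (0.96), Cxcr2 like C3 (0.98), and Ppbp like Mir147 (0.84).

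Among the 8 tested genes themselves, the closest pairs were a receptor pair and a ligand pair. Cxcr2 and Csf3r, both carried by neutrophils, had a correlation of 0.91 over the 12 libraries and of 0.96 and 0.99 within the sides. Cxcl2 and Cxcl3 had 0.84, and 0.95 and 0.80 within the sides. Cxcl5 and Csf3, both known products of epithelial and stromal cells under interleukin-17 and interleukin-1, had 0.72, and 0.73 and 0.94 within the sides. G-CSF and its receptor had 0.06 over all libraries, made up of 0.86 within the Ctrl-IgG and aCSF1R libraries and -0.78 within those labelled IL-10-Fc and BF10. On that side, the 3 libraries with FPKM sums above 800000 held 68.5 to 173 FPKM of Csf3 and 1.66 to 4.54 FPKM of Csf3r. The other 3 held 18.8 to 72.3 FPKM of Csf3 and 9.99 to 12.9 FPKM of Csf3r. Cxcr2 was at 0.56 to 1.10 FPKM in the first 3 and at 2.34 to 2.60 FPKM in the others. The first 3 also have title codes of 1 to 4 and the others of 5 to 7, the first number of the code that ends the library title. FPKM sum and title code cannot be told apart there.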

How the data were processed

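Total RNA of 12 tumour samples was made into stranded mRNA libraries and sequenced by the authors. The authors deposited FPKM values per gene, rounded to 2 decimals. The submitters' processing notes name STAR 2.7.5a, RSEM 1.3.3 and DESeq2 1.30.0 with the mouse build GRCm38 and give no roles. The deposited tables of the authors' own DESeq2 comparisons, with log2 fold changes, standard errors and p-values, were not used. FPKM keeps no read counts, so the depth in reads is unknown. Relative depth, judged from the steps of low values, spanned 1.44-fold, and FPKM sums spanned 637596 to 976950.

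Groups came from the treatment label. Replicate numbers follow sample order and only name libraries. No pair of libraries was identical (0 pairs). The 15813 of 55401 genes that reached 1 FPKM in 3 or more libraries were transformed to log2(FPKM + 1), so fold changes of low genes are understated. limma 3.58.1 in R 4.3.3 (lmFit, contrasts.fit, eBayes with trend) fitted all 12 libraries without covariates, with Benjamini-Hochberg adjustment over the 15813 genes. Calls needed an adjusted p under 0.05 together with a change of 1.5-fold or more. Scripts ran in Python 3.11.15 and were tested on simulated data. The genes and lists were chosen with earlier results of these data known. Named list genes were those called in a comparison with Ctrl-IgG and those at an unadjusted p under 0.05 within a side. Some others were picked after their values were seen (Socs3, Il17a, Il17f, Tnf, Il17rc, Tnfrsf1a and the platelet genes). Positions are from GENCODE M21, which held 55141 (99.5%) of the identifiers, and promoters from RefSeq. Alternatives were a pseudocount of 0.1, no filter, TPM and size-factor scaling, only the groups compared, and the FPKM sum or the title code as covariate. The title code was entered as 1 to 4 against 5 to 7. Further alternatives left out each library and, added after seeing the data, the 4 libraries of high FPKM sum.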

Additional observations from a re-analysis of the deposited data

How the results depend on the processing

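No paired analysis was possible because the replicate numbers follow sample order alone and so pair no libraries. Of 1101 recomputed differences of single genes, 44 had the other sign. Under every alternative, 0 of the 9 genes were called in either comparison within a side or for BF10 against the sum of its parts. Counts of genes called out of the 9 moved as follows, and the cause was not tested. The settings tested 8 of the 9, except 9 without the filter and 7 with only the groups compared against Ctrl-IgG (6 for aCSF1R). Leaving out the 4 libraries of high FPKM sum leaves 1 IL-10-Fc library and tests 7, and its counts are not given here. In BF10 against Ctrl-IgG (2) the count was 1 without the filter, with TPM and with only the groups compared. It was 4 with the FPKM sum as covariate, 3 with size factors and 1 to 3 leaving out each library. In IL-10-Fc against Ctrl-IgG (2) it was 4 with size factors, 4 with the covariate, 3 with the title code and 2 to 3 leaving out each library. In BF10 against aCSF1R (1) it was 2 with only the groups compared, 2 with the covariate and 1 to 2 leaving out each library. In IL-10-Fc against aCSF1R (2) it was 1 without the filter, 1 with size factors, 3 with only the groups compared, 3 with the covariate and 1 to 3 leaving out each library.

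None of the differences that changed sign was called in the fit of all libraries, in which the greatest were Cxcl5 (1.28) and Cxcl2 (0.76) in BF10 against Ctrl-IgG. Without the 4 libraries, Cxcl2 (-0.051) and Cxcl5 (-0.011) turned in BF10 against Ctrl-IgG, Cxcl2 (-0.75), Cxcl3 (-0.20) and Csf3r (-0.24) in BF10 against IL-10-Fc, and Csf3r (1.00) in IL-10-Fc against aCSF1R. With size factors, Cxcl1 turned in IL-10-Fc against Ctrl-IgG (0.40), Cxcl2 in BF10 against IL-10-Fc (-0.15), Cxcl5 in BF10 against aCSF1R (0.12), and Ppbp (0.40) and Csf3r (0.27) in IL-10-Fc against aCSF1R. With the FPKM sum as covariate, Cxcl2 (-0.069), Cxcr2 (-0.17) and Csf3r (-0.32) turned in BF10 against IL-10-Fc, and Csf3r (0.89) in IL-10-Fc against aCSF1R. With the title code, Cxcl5 (0.015) and Csf3r (-0.064) turned in BF10 against aCSF1R. With TPM, Cxcr2 turned in IL-10-Fc against aCSF1R (-0.019) and Csf3r in BF10 against the sum of its parts (0.086), and with a pseudocount of 0.1 Ppbp turned in IL-10-Fc against aCSF1R (0.022).

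Leaving out each library gave ranges that crossed 0. Against Ctrl-IgG these were Ppbp in BF10 (-0.27 to 0.29), and Cxcl1 (-0.30 to 0.13), Cxcl2 (-0.090 to 0.91) and Csf3r (-0.30 to 0.89) in IL-10-Fc. For BF10 against IL-10-Fc they were Cxcl2 (-0.16 to 0.67) and Csf3r (-0.040 to 1.15), and for BF10 against aCSF1R Cxcl3 (-0.52 to 0.064) and Cxcl5 (-0.99 to 0.57). For IL-10-Fc against aCSF1R they were Ppbp (-0.34 to 0.39), Cxcr2 (-0.19 to 0.39) and Csf3r (-0.85 to 0.34), and for the sum of parts Cxcr2 (-0.54 to 0.059) and Csf3r (-0.59 to 0.60).

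Over all genes, the number called moved as well. In BF10 against Ctrl-IgG (3941) it was 3507 without the filter, 3463 with TPM and 2833 with only the groups compared. With the covariate it was 6901, with size factors 4302, and leaving out each library 2584 to 4848. In IL-10-Fc against Ctrl-IgG (5326) it was 5200 with size factors, 7144 with the covariate and 6722 with the title code. With only the groups compared it was 2753, and leaving out each library 3530 to 8044. In BF10 against aCSF1R (3955) it was 4884 with only the groups compared, 6740 with the covariate and 2555 to 5001 leaving out each library. In IL-10-Fc against aCSF1R (6669) it was 5542 without the filter, 5967 with size factors and 5801 with only the groups compared. There it was 6735 with the covariate and 4203 to 9573 leaving out each library. In BF10 against IL-10-Fc (2) it was 12 without the 4 libraries and 109 without BF10 replicate 1.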

Other observations

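Other pairs among the 8 tested genes were less alike on the 2 sides. Cxcl1 had a correlation of 0.93 with Csf3 and of 0.93 with Cxcl5 within the 6 libraries labelled IL-10-Fc and BF10, against 0.15 and 0.74 within the Ctrl-IgG and aCSF1R libraries. Cxcl3 and Cxcl5 had 0.96 within the Ctrl-IgG and aCSF1R libraries and 0.10 within the others. Cxcr2 had 0.87 with Csf3 on the first side and -0.82 on the second. These values each describe 6 libraries that share their scale and their groups, and no test was made.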
